A study of Rattus norvegicus with 68 samples.

Results

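Interferon response genes are described here in the nasal epithelium of rats that inhaled formaldehyde. The set was a list of 50 genes given by symbol, of which 45 were measured, among 14217 genes measured in all. Where several probe sets named a gene, the brightest on average was used. No probe set used here named Oasl2, Samd9l, Xaf1, Gbp5 or Trim21 alone. Values are RMA log2 signals, so a difference of 1 is a doubling of signal, and levels of different genes are not compared because probe sets differ in brightness.

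The study measured RNA on 68 single-colour Affymetrix Rat230_2 arrays, 1 male F344/CrlBR rat per array. Rats, 8 weeks old, inhaled formaldehyde by whole-body exposure, 6 h daily and 5 days weekly. There were 17 groups of 4 animals, with 0, 0.7 and 2 ppm as well as 6, 10 and 15 ppm at both 5 d and 13 w, and the same doses without 0 ppm at 4 w. Groups at 4 w were compared with 0.7 ppm, which was itself exposed, because 0 ppm at 4 w was not analysed here. RNA came from cells that proteases released from the level II part of the nose after the maxilloturbinate and olfactory lining had been discarded. Titles of 0 ppm samples carry a code (ACO1 at 5 d, ACO3 at 13 w) whose meaning is not given, and what it stands for cannot be told apart from dose or time. The labels name the animals and give no litter, so animals were taken as separate samples. The treatment field of most 4 w samples gives 5 days, and their title, description and time label were followed. The series text speaks of 1 week where the sample labels give 5 d.

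Interferons are cytokines that cells release on sensing viral or damaged nucleic acid, and immune cells add interferon gamma. Types I and III act through receptors, JAK kinases and a complex with STAT2 and IRF9 that binds the interferon-stimulated response element, and interferon gamma acts mainly through the gamma-activated site. Their target genes encode antiviral proteins, the ubiquitin-like ISG15 and its machinery, and the immunoproteasome and peptide transporters that feed MHC class I. In airway epithelium these genes can be induced in the epithelial cells themselves as well as in leukocytes among them.

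The promoters of 5 genes chosen by name are shown. Isg15 was also chosen, but its promoter was not matched in the RefSeq table. Each is the window from 250 bases before to 50 bases after the RefSeq start, on GRCr8, written 5′ to 3′ in the gene's direction. Capitals mark a match to GAAANNGAAA (the core of the interferon-stimulated response element) or TTCNNNGAA (the gamma-activated site) on either strand.
Ifit3 (chr1:241527076-241527375, plus strand): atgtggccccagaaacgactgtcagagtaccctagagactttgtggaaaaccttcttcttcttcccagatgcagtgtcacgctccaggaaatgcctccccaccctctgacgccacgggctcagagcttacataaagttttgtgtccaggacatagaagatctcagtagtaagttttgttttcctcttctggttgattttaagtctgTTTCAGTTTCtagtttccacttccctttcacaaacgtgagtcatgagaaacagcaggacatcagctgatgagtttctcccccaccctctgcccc
Tap1 (chr20:4668494-4668793, minus strand): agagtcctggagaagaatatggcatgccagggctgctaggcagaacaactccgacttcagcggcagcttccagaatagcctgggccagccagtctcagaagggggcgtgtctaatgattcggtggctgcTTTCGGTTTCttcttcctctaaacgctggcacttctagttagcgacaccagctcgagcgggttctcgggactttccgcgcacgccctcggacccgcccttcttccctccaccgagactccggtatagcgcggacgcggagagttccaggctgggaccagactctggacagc
Psmb9 (chr20:4668750-4669049, plus strand): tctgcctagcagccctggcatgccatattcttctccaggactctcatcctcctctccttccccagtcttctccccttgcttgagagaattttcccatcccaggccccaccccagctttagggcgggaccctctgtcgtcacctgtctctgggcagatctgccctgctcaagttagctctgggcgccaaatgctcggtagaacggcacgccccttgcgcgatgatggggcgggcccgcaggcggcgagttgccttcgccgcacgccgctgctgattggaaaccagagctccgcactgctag
Irf1 (chr10:38417685-38417984, plus strand): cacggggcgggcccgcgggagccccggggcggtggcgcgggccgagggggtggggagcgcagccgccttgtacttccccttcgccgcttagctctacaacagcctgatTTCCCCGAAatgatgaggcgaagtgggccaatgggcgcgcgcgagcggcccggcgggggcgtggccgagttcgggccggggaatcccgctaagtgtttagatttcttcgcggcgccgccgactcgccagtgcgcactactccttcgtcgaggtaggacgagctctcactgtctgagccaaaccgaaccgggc
Lgals3bp (chr10:104127799-104128098, minus strand): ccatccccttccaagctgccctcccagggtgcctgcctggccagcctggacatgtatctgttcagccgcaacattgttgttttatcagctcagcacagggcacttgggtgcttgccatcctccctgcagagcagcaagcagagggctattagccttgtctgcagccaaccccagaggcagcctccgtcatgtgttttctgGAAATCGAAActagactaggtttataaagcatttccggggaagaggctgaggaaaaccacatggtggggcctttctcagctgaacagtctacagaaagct
Ifit3, Tap1 and Lgals3bp hold a GAAANNGAAA match that starts at -44, -121 and -50 relative to the start. Irf1 holds a TTCNNNGAA match at -142, and the Psmb9 window holds neither. Tap1 and Psmb9 are divergent neighbours on chromosome 20 whose starts lie 457 bases apart and whose windows share 44 bases. The Tap1 match lies between these starts, outside the window cut for Psmb9. Promoters of 37 measured genes of the set were in the RefSeq table. GAAANNGAAA was present in 24 of these 37 (64.9%), against 1034 of 27457 promoters of the same length (3.77%). TTCNNNGAA was present in 10 of 37 (27.0%), against 2382 of 27457 (8.68%). The 24 genes with GAAANNGAAA had a median difference of 0.99 at 15 ppm after 5 d, against 0.81 for the 13 without it, and after 13 w these medians were -0.06 and 0.03. For TTCNNNGAA the medians were 0.79 with it (10 genes) and 0.87 without it (27 genes) after 5 d, and -0.08 and 0.04 after 13 w. These medians carry no test. A match describes letters in this window and does not show a site in use.

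Labelled epithelial tissue was checked against its markers. The mean of 15 nasal epithelium markers at 5 d was 12.17 ± 0.03 at 15 ppm and 12.17 ± 0.14 at 0 ppm (SD, n = 4 each). By limma 4 of the markers were higher and 4 lower, against 18.3% of all genes higher and 19.5% lower. Among the 15, Epcam averaged 12.57 at 15 ppm and 12.86 at 0 ppm, and Krt15 averaged 14.19 at 15 ppm and 14.46 at 0 ppm. Both of these means were lower at 15 ppm, whereas the 4 markers called higher went the other way. Omp, the olfactory marker protein of sensory neurons, still averaged 12.35 at 15 ppm and 12.78 at 0 ppm although the olfactory lining had been discarded. The mean of 9 fibroblast and endothelium markers was 10.51 ± 0.80 at 15 ppm and 10.30 ± 0.45 at 0 ppm (SD, n = 4 each), and the collagen gene Col1a2 among them averaged 13.38 at 15 ppm and 13.62 at 0 ppm, not called. Markers of olfactory and stromal cells were thus present beside the epithelial ones. In such bulk RNA, fewer cells of a type and less RNA per cell cannot be told apart.

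After 5 d at 15 ppm, 38 of the 45 interferon response genes were higher than at 0 ppm and 0 were lower (limma, Benjamini-Hochberg adjusted p under 0.05). Over all genes, 37.7% were called in either direction, 18.3% higher and 19.5% lower. The median difference was 0.97, against -0.01 over all genes, and 22 genes differed by more than 1. In 35 of the 45 every 15 ppm array lay above every 0 ppm array, which held for 15.7% of all genes. The heat map of group means shows where the differences lie.

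**Figure D1:**
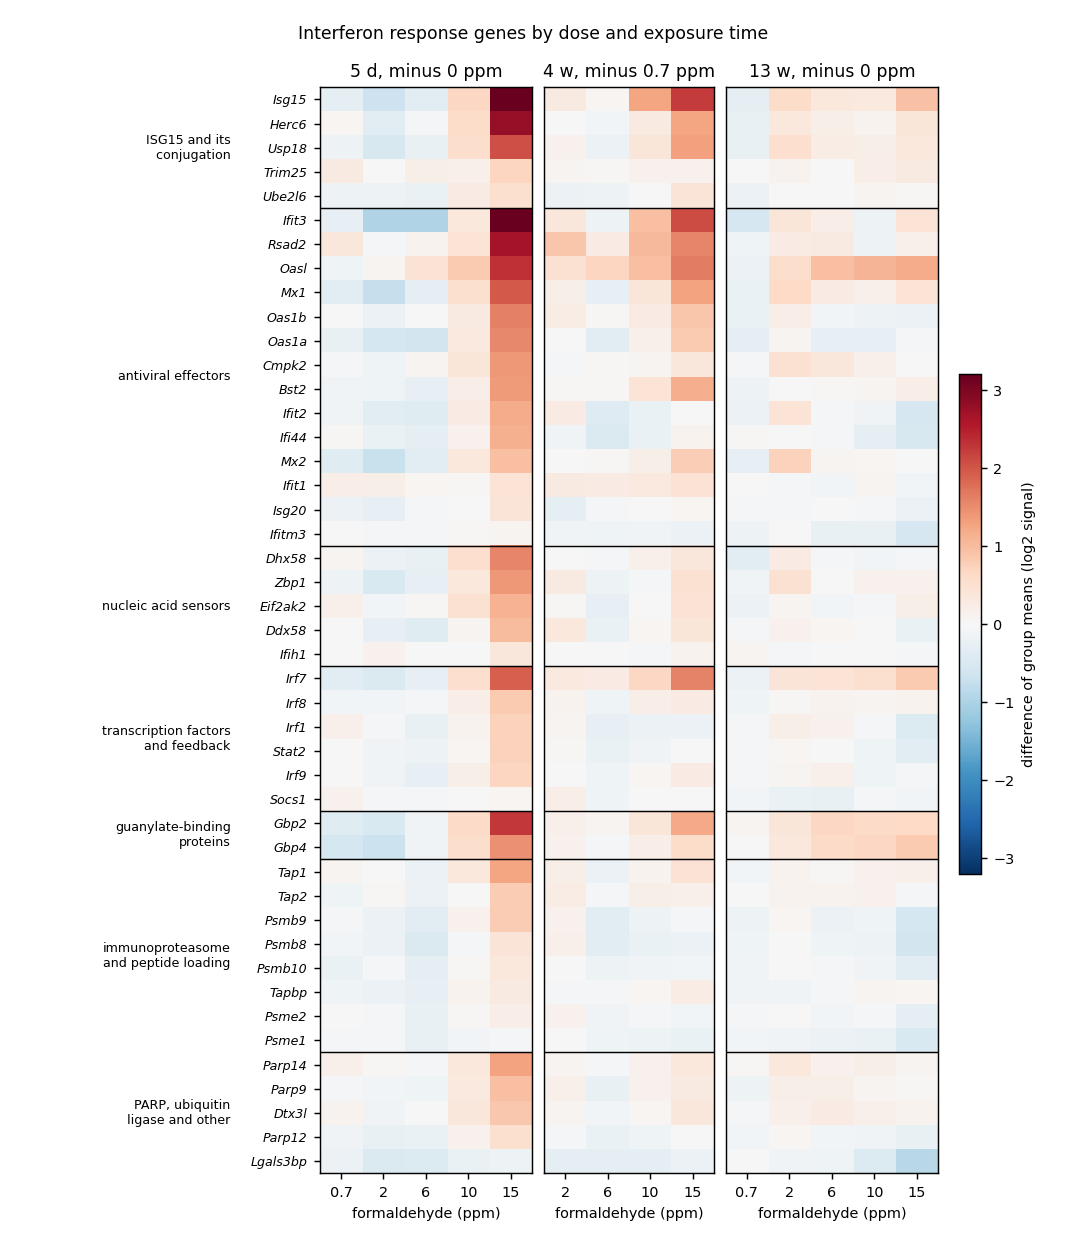
Each row is 1 of the 45 genes, ordered by role and by its difference at 15 ppm after 5 d, and each column is a dose in ppm. Colour is the group mean minus that of 0 ppm (5 d, 13 w) or 0.7 ppm (4 w) on the log2 scale, and the 15 ppm column of 5 d is red in most rows, that of 4 w in fewer, and that of 13 w is red for few genes (Isg15, Oasl, Irf7 and Gbp4 were called higher) and blue for Lgals3bp and most immunoproteasome genes.

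The genes for ISG15 and its conjugation were all higher after 5 d (5 of 5, median 2.05). Isg15, which encodes the ubiquitin-like modifier, read 13.53, 13.22, 13.22 and 13.39 at 15 ppm, against 10.67, 9.76, 9.98 and 10.32 at 0 ppm. All 4 exposed animals lay within a narrow band far above the 0 ppm animals. The difference was 3.15 ± 0.37 (SE, n = 4 each), 8.90-fold (limma adjusted p = 5.97e-10). Usp18, which removes ISG15 from proteins and dampens type I receptor signalling, read 11.09, 11.15, 10.36 and 10.66 at 15 ppm, against 9.17, 8.44, 8.56 and 8.88 at 0 ppm. The groups did not overlap, and the difference was 2.05 ± 0.32 (limma adjusted p = 5.39e-07).
Herc6, the ISG15 ligase in mice, read 8.89, 8.65, 7.93 and 8.25 at 15 ppm, against 6.24, 5.19, 5.55 and 5.54 at 0 ppm. Its 0 ppm mean lay under 6, where signal is low, so no fold is given, and the limma adjusted p was 8.06e-14. The ubiquitin ligase gene Trim25, which acts with RIG-I, rose by 0.70 ± 0.12, and Ube2l6, the ISG15-conjugating enzyme, by 0.51 ± 0.18 with overlapping groups.

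Of the antiviral effectors, 13 of 14 were higher after 5 d (median 1.37). Ifit3, of the IFIT family of RNA-binding antiviral proteins, read 12.58, 11.75, 12.00 and 12.28 at 15 ppm, against 9.29, 8.48, 8.96 and 9.25 at 0 ppm. These arrays were far apart with no overlap, by 3.16 ± 0.44 (8.91-fold, limma adjusted p = 4.51e-08). Rsad2, the radical-SAM enzyme viperin, read 12.82, 12.13, 11.99 and 12.57 at 15 ppm, against 9.89, 9.22, 9.37 and 10.33 at 0 ppm. It rose by 2.67 ± 0.32, 6.38-fold.
Oasl, an oligoadenylate synthetase-like protein, read 11.20, 10.84, 10.49 and 10.88 at 15 ppm, against 8.65, 8.16, 8.60 and 8.67 at 0 ppm. This too was a separation of all 8 arrays, of 2.33 ± 0.24. Mx1, a dynamin-like GTPase that blocks virus replication, read 11.05, 11.26, 9.78 and 10.35 at 15 ppm, against 9.24, 7.92, 8.56 and 8.86 at 0 ppm. The exposed animals differed more among themselves than for Isg15, and the difference was 1.96 ± 0.43 (limma adjusted p = 0.000207). Bst2, the tetherin that holds budding virus at the membrane, read 11.73, 12.37, 11.02 and 11.29 at 15 ppm, against 10.29, 10.15, 10.11 and 10.41 at 0 ppm. It rose by 1.36 ± 0.24.
Differences of the other effectors that rose ran from 0.40 for the exonuclease gene Isg20 to 1.55 for Oas1a among those with signal above 6 at 0 ppm. Ifitm3, which keeps virus from fusing in endosomes, averaged 13.35 ± 0.17 at 15 ppm and 13.25 ± 0.13 at 0 ppm (SD, n = 4 each) and was not called.

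All 5 nucleic acid sensors were higher after 5 d (median 1.11). Ddx58 (RIG-I, listed as Rig1 in the probe annotation), the sensor of viral RNA ends, read 9.42, 9.81, 8.83 and 9.13 at 15 ppm, against 8.51, 8.24, 8.15 and 8.21 at 0 ppm. Each exposed array was above the 0 ppm arrays, by 1.02 ± 0.20 (limma adjusted p = 4.16e-05). Dhx58 (LGP2), a RIG-I relative, rose by 1.57 ± 0.23, Zbp1, a sensor of Z-form nucleic acid, by 1.39 ± 0.32, and Eif2ak2, the kinase PKR, by 1.11 ± 0.16. The long-RNA sensor gene Ifih1 (MDA5) rose at low signal, with 6.01 ± 0.21 at 15 ppm and 5.64 ± 0.22 at 0 ppm (SD, n = 4 each).

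Among transcription factors and feedback genes, 5 of 6 were higher after 5 d (median 0.74). Irf7, which amplifies type I interferon production, read 12.92, 13.07, 12.22 and 12.52 at 15 ppm, against 10.99, 10.31, 10.65 and 11.13 at 0 ppm. Every exposed array was more than a doubling above the highest 0 ppm array, and the difference was 1.91 ± 0.29 (3.77-fold). Irf1, a transcription factor induced early by interferon gamma, read 10.45, 10.23, 9.99 and 10.19 at 15 ppm, against 9.52, 9.46, 9.47 and 9.42 at 0 ppm. The 0 ppm animals were nearly identical, and the difference was 0.75 ± 0.18.
Stat2, a transcription factor of type I signalling, read 9.55, 9.52, 9.0 and 9.15 at 15 ppm, against 8.66, 8.42, 8.69 and 8.52 at 0 ppm. It rose by 0.73 ± 0.11, and its other probe set by 1.04 ± 0.15. Irf9 and Irf8 rose by 0.69 ± 0.16 and 0.84 ± 0.17. Socs1, the feedback inhibitor of JAK kinases, was not called through the probe set chosen by level (5.77 ± 0.12 at 15 ppm, 5.71 ± 0.12 at 0 ppm, SD, n = 4 each). A dimmer Socs1 probe set rose by 1.31 ± 0.14 (limma adjusted p = 1.56e-10 over all 31099 probe sets), so the 2 probe sets disagreed.

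Both guanylate-binding proteins, GTPases of cell-autonomous defence, were higher. Gbp2 read 11.60, 11.47, 10.78 and 11.12 at 15 ppm, against 9.22, 8.76, 9.10 and 8.85 at 0 ppm. No arrays overlapped, and the difference was 2.26 ± 0.36 (4.79-fold). Gbp4 rose by 1.47 ± 0.34.

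Of the immunoproteasome and peptide-loading genes, 4 of 8 were higher after 5 d (median 0.37). Tap1, a subunit of the transporter that carries peptides to class I molecules, read 10.20, 10.58, 9.76 and 9.93 at 15 ppm, against 9.0, 8.76, 8.86 and 8.78 at 0 ppm. The separation was complete, at 1.26 ± 0.23 (limma adjusted p = 1.29e-05). Psmb9, an immunoproteasome catalytic subunit transcribed away from Tap1, read 11.48, 11.91, 11.42 and 11.28 at 15 ppm, against 10.86, 10.77, 10.70 and 10.52 at 0 ppm. It rose by 0.81 ± 0.23, with groups that did not overlap. Tap2 and the tapasin gene Tapbp rose by 0.82 ± 0.16 and 0.29 ± 0.11.
The other catalytic subunits, Psmb8 and Psmb10, differed by 0.41 ± 0.23 and 0.33 ± 0.17, and the PA28 regulators Psme1 and Psme2 by -0.06 ± 0.10 and 0.22 ± 0.14, none of them called. Of the constitutive proteasome, 20 of 31 measured genes were higher with a median of 0.20, against 18.3% of all genes higher. Psmb7, the constitutive counterpart of Psmb10, rose by 0.28 ± 0.06.

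Among PARP, ubiquitin ligase and other genes, 4 of 5 were higher (median 0.87). Parp14, a mono-ADP-ribosyltransferase, rose by 1.29 ± 0.15, Parp9 by 0.96 ± 0.17, its partner the ubiquitin ligase gene Dtx3l by 0.87 ± 0.16 and Parp12 by 0.50 ± 0.13. Lgals3bp, a secreted glycoprotein that binds galectins, read 11.52, 11.82, 11.12 and 11.35 at 15 ppm, against 11.32, 11.44, 11.68 and 12.00 at 0 ppm. These arrays overlapped and the gene was not called, and its promoter window holds a GAAANNGAAA match like those of Ifit3 and Tap1.

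Genes of other lists in the same pathway were measured beside the set. Of the 3 interferon genes measured, Ifng (interferon gamma) rose by 0.57 ± 0.09 after 5 d at low signal (4.19 at 15 ppm and 3.62 at 0 ppm), and Ifnb1 (interferon beta) averaged 4.45 at 15 ppm and 4.48 at 0 ppm and was not called. All 4 of CXCR3 and its ligands, interferon-induced chemokines that draw T cells, were higher: Cxcl11 averaged 11.82 at 15 ppm and 5.70 at 0 ppm, and Cxcl10 averaged 11.18 at 15 ppm and 6.16 at 0 ppm. Of the sensing and induction genes, 5 of 9 were higher and 1 lower, against 18.3% of all genes higher and 19.5% lower. Among those higher were Myd88, the adaptor of Toll-like receptors (0.87 ± 0.09), and Tlr7 (7.50 at 15 ppm and 5.53 at 0 ppm).

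Leukocyte markers rose with these genes at 15 ppm after 5 d. Of the T and NK cell list, 14 of 19 were higher, of macrophage and dendritic cell markers 12 of 19, of neutrophil markers 8 of 8, and of B and plasma cell markers 0 of 6. Over all genes 18.3% were higher and 19.5% lower. The mean of the T and NK list ran from 6.75 to 7.93 at 15 ppm and from 6.03 to 6.32 at 0 ppm, that of macrophages and dendritic cells from 8.65 to 9.40 at 15 ppm and from 7.78 to 8.16 at 0 ppm, and that of neutrophils from 8.96 to 9.32 at 15 ppm and from 6.37 to 7.46 at 0 ppm. None of these 3 ranges overlapped. On this scale no marker reads 0, and B and plasma cell means ran from 6.24 to 6.83 at 15 ppm and from 6.04 to 6.76 at 0 ppm. The 3' minus 5' beta-actin signal was also larger at 15 ppm, at 2.47 ± 0.08, against 1.71 ± 0.20 at 0 ppm (SD, n = 4 each). At 6 ppm after 5 d, where no gene of the set was called, it was 2.61 ± 0.17 (SD, n = 4). The RNA integrity number was 8.33 ± 0.33 at 15 ppm and 7.68 ± 0.29 at 0 ppm (SD, n = 4 each). With that number as a covariate the calls of Ube2l6, Isg20 and Tapbp were lost (limma adjusted p = 0.128, 0.0954 and 0.0853), and with the actin ratio those of Mx2 and Ifit1 (limma adjusted p = 0.141 and 0.0735). The part of the cell markers in the results was not tested.

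After 4 w at 15 ppm, 14 of 45 genes were higher than at 0.7 ppm and 0 were lower, against 37.4% called over all genes (21.3% higher and 16.1% lower). The median difference was 0.36, against 0.01 over all genes, and in 11 genes every 15 ppm array lay above every 0.7 ppm array (19.7% of all genes). The called genes were 3 of 5 for ISG15 and its conjugation and 8 of 14 antiviral effectors, with Irf7, Eif2ak2 and Gbp2. None of the 8 immunoproteasome and peptide-loading genes was called (limma, 3 at an unadjusted p under 0.05). All 14 were also among the 38 called after 5 d, which is 36.8% of those 38. Because 38 of the 45 were called after 5 d, a large overlap was likely whichever 14 were called.

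Isg15 read 12.13, 10.98, 11.94 and 11.18 at 15 ppm after 4 w, against 9.30, 8.41, 9.56 and 10.00 at 0.7 ppm. The groups did not overlap, and the difference was 2.24 ± 0.37 (4.71-fold, limma adjusted p = 2.05e-06). Ifit3 read 10.47, 10.03, 10.75 and 9.71 at 15 ppm, against 8.48, 6.63, 8.37 and 9.12 at 0.7 ppm. One animal at 0.7 ppm read far below its group, and the difference was 2.09 ± 0.44. Irf7 read 12.07, 10.78, 11.72 and 11.43 at 15 ppm, against 10.01, 9.27, 10.06 and 10.35 at 0.7 ppm, again apart.
Oasl read 9.77, 9.29, 9.87 and 9.32 at 15 ppm, against 8.16, 7.38, 7.76 and 8.43 at 0.7 ppm, a rise of 1.63 ± 0.24. Rsad2 read 10.45, 10.20, 11.03 and 10.05 at 15 ppm, against 8.70, 7.84, 9.46 and 9.47 at 0.7 ppm, a rise of 1.57 ± 0.32. Both separated completely. Mx1 read 10.13, 7.81, 9.48 and 8.92 at 15 ppm, against 8.18, 6.84, 7.81 and 8.36 at 0.7 ppm, and rose by 1.29 ± 0.43 with overlapping groups.
Gbp2 read 10.29, 9.29, 9.92 and 9.49 at 15 ppm, against 8.62, 8.32, 8.41 and 8.78 at 0.7 ppm, and Bst2 read 11.42, 10.35, 10.91 and 11.01 at 15 ppm, against 9.58, 9.87, 9.85 and 9.76 at 0.7 ppm. Neither gene overlapped, and they rose by 1.22 ± 0.36 and 1.16 ± 0.24, beside Usp18 at 1.32 ± 0.32. Psmb9 read 11.09, 10.44, 10.56 and 10.72 at 15 ppm, against 11.16, 10.65, 10.63 and 10.50 at 0.7 ppm, with full overlap. Irf1, Stat2 and Psmb9 differed by -0.20 ± 0.18, -0.02 ± 0.11 and -0.03 ± 0.23, Ddx58 by 0.38 ± 0.20, Tap1 by 0.47 ± 0.23 and Lgals3bp by -0.18 ± 0.17, and none of these was called. Neutrophil marker means ran from 7.50 to 8.13 at 15 ppm and from 6.03 to 6.58 at 0.7 ppm, macrophage and dendritic cell means from 7.83 to 8.22 at 15 ppm and from 7.43 to 7.81 at 0.7 ppm, and T and NK cell means from 6.09 to 6.51 at 15 ppm and from 6.05 to 6.26 at 0.7 ppm. The part of these markers was not tested. The RNA integrity number was 8.73 ± 0.29 at 15 ppm and 8.20 ± 0.08 at 0.7 ppm (SD, n = 4 each), and with it as a covariate the call of Eif2ak2 was lost (limma adjusted p = 0.0573).

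After 13 w at 15 ppm the set split: 4 of 45 genes were higher than at 0 ppm and 8 were lower, against 44.2% of all genes called (23.5% higher and 20.6% lower). The share of the set called was thus below that of all genes. The median difference was -0.02 for the set and -0.02 for all genes. Every 15 ppm array lay above every 0 ppm array in 5 genes (22.9% of all genes) and below in 11 (18.5%).

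Oasl read 8.85, 9.20, 9.09 and 9.29 at 15 ppm after 13 w, against 7.61, 7.83, 8.15 and 8.06 at 0 ppm. All exposed arrays were higher, by 1.20 ± 0.24 (2.29-fold, limma adjusted p = 3.26e-05). Isg15 read 9.49, 10.19, 9.25 and 10.68 at 15 ppm, against 8.71, 9.15, 8.68 and 9.30 at 0 ppm. Here the groups overlapped, and the difference was 0.94 ± 0.37 (adjusted p = 0.0334 by limma). Irf7 read 10.21, 10.51, 10.19 and 10.92 at 15 ppm, against 9.41, 9.57, 9.55 and 10.00 at 0 ppm, apart by 0.83 ± 0.29. Gbp4 read 6.67, 6.07, 5.98 and 6.49 at 15 ppm, against 5.06, 5.77, 5.82 and 5.26 at 0 ppm, at low signal. Isg15, Oasl and Irf7 were the genes called higher at all 3 times, but of the 4 genes called higher after 13 w Oasl alone kept its call under every alternative and without each animal in turn. With the RNA integrity number as a covariate the limma adjusted p was 0.386 for Isg15, 0.337 for Irf7 and 0.168 for Gbp4. Leaving out the arrays without that number also lost the calls of Isg15 and Irf7 (limma adjusted p = 0.0924 and 0.0684). The call of Isg15 was also lost without 0 ppm animal 225 or 229 or 15 ppm animal 377 or 379, that of Irf7 without 225 or 379, and that of Gbp4 without 225, 230, 375 or 379.

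Lgals3bp read 10.30, 10.38, 10.00 and 10.45 at 15 ppm after 13 w, against 11.30, 11.31, 10.92 and 11.11 at 0 ppm. All exposed arrays were lower, by -0.88 ± 0.17 (limma adjusted p = 1.61e-05), the strongest decrease among the 45. Psmb8 read 9.27, 9.42, 9.12 and 9.17 at 15 ppm, against 9.51, 10.27, 9.91 and 9.64 at 0 ppm. Psmb9 read 10.11, 10.27, 10.09 and 10.27 at 15 ppm, against 10.43, 11.14, 10.88 and 10.53 at 0 ppm. In both subunits the exposed arrays were lower and closer together, with differences of -0.59 ± 0.23 (limma adjusted p = 0.0316) and -0.56 ± 0.23 (limma adjusted p = 0.0462). Neither call was stable. That of Psmb9 was lost with median centring, the compared time alone, array weights, the RNA integrity number or the actin ratio as a covariate, the arrays without that number left out, or 0.7 ppm as the reference (limma adjusted p from 0.0523 to 0.191), and without 0 ppm animal 226 or 229 or any 1 of the 4 animals at 15 ppm. That of Psmb8 was lost with the compared time alone, the RNA integrity number, the arrays without it left out or 0.7 ppm as the reference (0.0747 to 0.168), and without animals 226, 229, 378 or 379.
Ifitm3 read 12.92, 13.04, 12.71 and 12.83 at 15 ppm, against 13.26, 13.44, 13.45 and 13.49 at 0 ppm. Ifi44, an interferon-induced protein, read 7.0, 7.21, 6.98 and 7.16 at 15 ppm, against 7.62, 7.74, 7.42 and 7.59 at 0 ppm. Neither overlapped, and they fell by 0.54 and 0.51 on the log2 scale. The Ifi44 call was lost without 0 ppm animal 226 (limma adjusted p = 0.0507). It was also lost with the arrays lacking an RNA integrity number left out (limma adjusted p = 0.0542). Irf1 read 9.49, 9.30, 8.79 and 9.0 at 15 ppm, against 9.38, 9.72, 9.80 and 9.43 at 0 ppm, overlapping, at -0.44 ± 0.18. The Irf1 call was lost without animals 226, 229, 378 or 379. With the RNA integrity number or the actin ratio as a covariate it was lost too (limma adjusted p = 0.2 and 0.0509). The same held with the compared time alone, the arrays without that number left out, or 0.7 ppm as the reference (limma adjusted p = 0.133, 0.0774 and 0.0846). Stat2 read 8.16, 8.15, 7.93 and 8.02 at 15 ppm, against 8.34, 8.35, 8.43 and 8.51 at 0 ppm, at -0.34 ± 0.11.
Psme1 fell by 0.49 ± 0.10 through its bright probe set, while a dimmer one differed by 0.29 ± 0.14 and was not called. The second Stat2 probe set differed by -0.10 ± 0.15, not called. With the mean of all probe sets both calls were lost, Psme1 at -0.10 (limma adjusted p = 0.399) and Stat2 at -0.22 (limma adjusted p = 0.143). Ifit3 read 8.61, 8.96, 7.40 and 9.30 at 15 ppm, against 7.49, 8.14, 8.27 and 8.60 at 0 ppm, overlapping and not called. Tap1 read 8.79, 9.01, 8.97 and 9.03 at 15 ppm, against 8.53, 9.04, 8.98 and 8.63 at 0 ppm, also not called. Mx1, Usp18, Ddx58, Gbp2 and Bst2 were not called after 13 w either.

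Immunoproteasome and constitutive proteasome genes were set side by side after 13 w. Of the 8 immunoproteasome and peptide-loading genes, 3 were lower and 0 higher (median -0.31), and of 31 constitutive proteasome genes 21 were higher and 0 lower (median 0.31), against 20.6% of all genes lower and 23.5% higher. The 3 lower genes were Psmb8, Psmb9 and Psme1, and each lost its call under at least 1 alternative given above. Psmd11, a regulatory-particle subunit, rose by 0.65 ± 0.09, Psmd3 by 0.58 ± 0.07 and Psmb5, the constitutive counterpart of Psmb8, by 0.19 ± 0.05. The proteasome plot shows both sets after 5 d and 13 w. Of 10 class I and assembly genes, 6 were lower and 1 higher, with the class I light chain gene B2m at -0.42 ± 0.07 and the class I gene RT1-S3 at -0.65 ± 0.17. Of 12 receptor and JAK-STAT genes, 8 were lower and 0 higher, with Il10rb, a subunit of the interferon lambda receptor, at -0.63 ± 0.08, Ifnar1, of the type I receptor, at -0.87 ± 0.18, and Jak1 at -0.32 ± 0.05. The mean of these 12 was also lower after 4 w, from 8.96 to 9.08 at 15 ppm and from 9.26 to 9.48 at 0.7 ppm. After 5 d it overlapped, from 9.08 to 9.29 at 15 ppm and from 9.20 to 9.28 at 0 ppm.

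**Figure D2:**
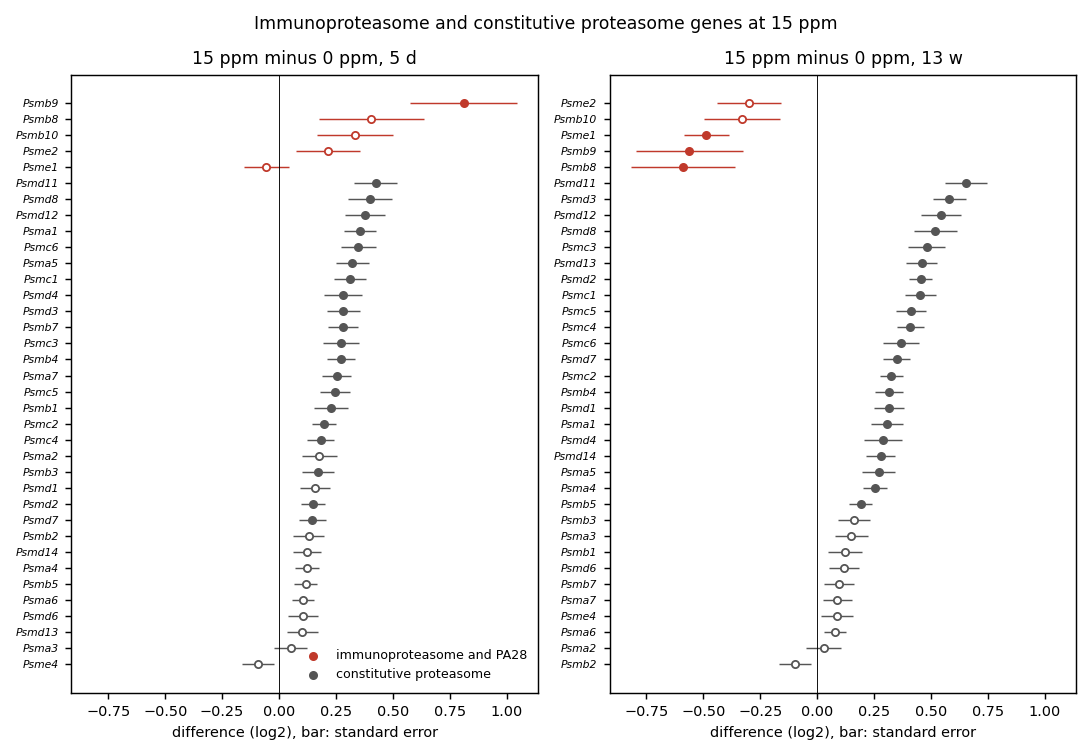
Points are differences in log2 signal at 15 ppm minus 0 ppm with standard error bars, after 5 d on the left and 13 w on the right, filled where the adjusted p was under 0.05. The 5 immunoproteasome and PA28 genes (red, top) lie at -0.06 or above after 5 d and at -0.30 or below after 13 w, while 21 of 31 constitutive genes (grey) were called higher after 13 w.

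After 13 w at 15 ppm, 7 of 19 T and NK cell markers, 5 of 19 macrophage and dendritic cell markers and 4 of 6 B and plasma cell markers were lower, and 1 macrophage and dendritic cell marker and 2 of 8 neutrophil markers were higher, against 20.6% of all genes lower and 23.5% higher. The B and plasma cell mean ran from 5.96 to 6.52 at 15 ppm and from 6.61 to 7.89 at 0 ppm, the T and NK mean from 5.88 to 6.13 at 15 ppm and from 6.20 to 6.44 at 0 ppm, and the macrophage and dendritic cell mean from 7.35 to 7.66 at 15 ppm and from 7.50 to 7.86 at 0 ppm. The neutrophil mean ran higher, from 6.64 to 7.49 at 15 ppm and from 6.00 to 7.17 at 0 ppm. Ranges overlapped for neutrophils and for macrophages and dendritic cells. Stromal markers were lower in 3 of 9, and of 15 nasal epithelium markers 7 were higher and 5 lower, against 4 higher and 4 lower after 5 d. The RNA integrity number was 8.90 ± 0.36 at 15 ppm and 7.57 ± 0.23 at 0 ppm (SD, n = 3 each with a value). With that number as a covariate, which drops the arrays without one, 6 genes of the set were called (Oasl higher and Lgals3bp, Ifitm3, Ifi44, Psme1 and Stat2 lower). When only those arrays were dropped 6 were also called, with Gbp4 (higher) in place of Ifi44. Leaving out 15 ppm animal 379 gave 6 as well. The part of cell markers in these results was not tested.

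The difference at 15 ppm was lower after 13 w than after 5 d in all 45 genes. As a tested difference of the responses, 36 of 45 were lower and 0 higher, against 15.3% called over all genes (9.21% higher and 6.09% lower). The median difference of responses was -1.08, against 0.01 over all genes. Stat2 (-1.08 ± 0.15, limma adjusted p = 3.16e-07), Herc6 (-2.41 ± 0.35) and Ifi44 (-1.64 ± 0.25) had the smallest adjusted p-values. Isg15 differed by -2.21 ± 0.52, Ifit3 by -2.71 ± 0.62 and Psmb9 by -1.37 ± 0.33, all called, whereas Irf7 (-1.09 ± 0.41) and Mx1 (-1.52 ± 0.61) were not.
With 0.7 ppm as the baseline at both times, the response at 15 ppm was below that of 5 d after 4 w in 8 of 45 genes and above it in 0 (3.45% of all genes called, 1.58% higher and 1.86% lower), namely Stat2, Cmpk2, Herc6, Ifi44, Parp14, Dhx58, Tap2 and Ifit2. That count ran from 4 to 12 when each animal was left out in turn and was 21 with the actin ratio as a covariate. On the same baseline, 0 of 45 genes were called between 13 w and 4 w by limma (6 at an unadjusted p under 0.05), where 0.0633% of all genes were called, 0.0141% higher and 0.0492% lower. The 10 ppm response was called in 0 of 45 genes between 13 w and 5 d (limma, 1 at an unadjusted p under 0.05), against 0.00703% of all genes. The plot by role shows these courses.

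**Figure D3:**
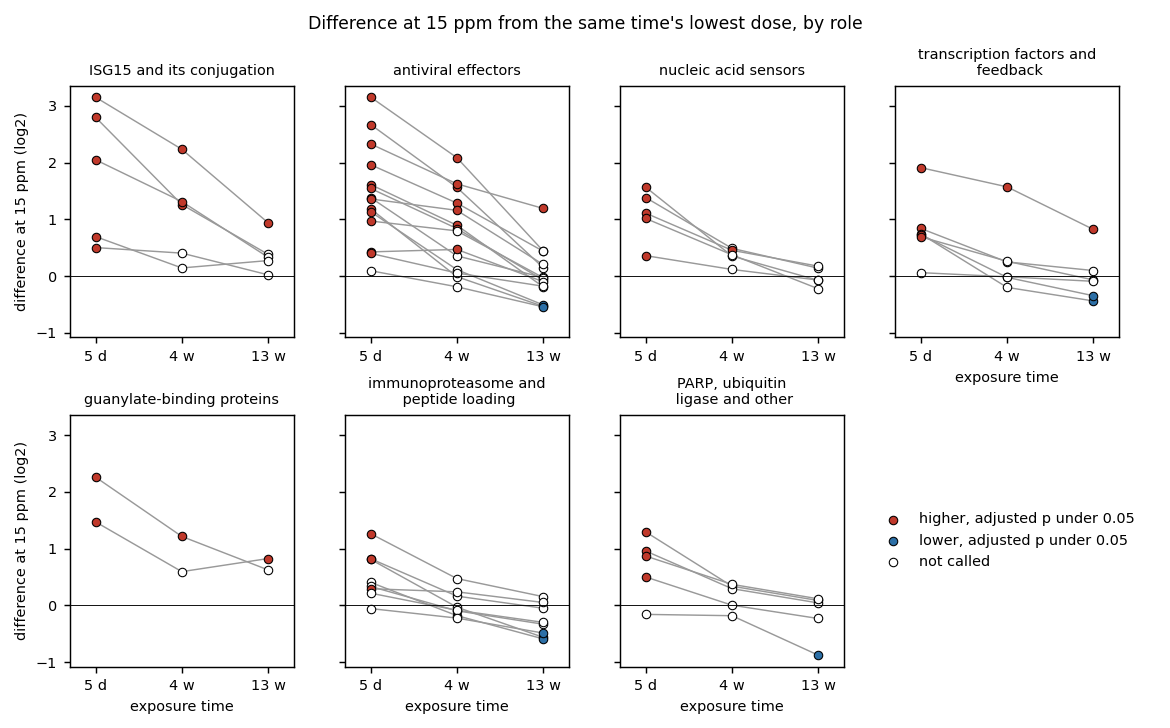
Each line is 1 gene and each panel 1 role, with the difference in log2 signal at 15 ppm from 0 ppm (5 d, 13 w) or 0.7 ppm (4 w) against exposure time. Red and blue fills mark genes called higher and lower, and the lines run downward from 5 d to 13 w, with 38 genes called higher after 5 d, 14 after 4 w and 4 after 13 w.

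Levels at 0 ppm were also compared between times. Irf7 averaged 9.63 ± 0.26 at 13 w and 10.77 ± 0.37 at 5 d (SD, n = 4 each), a difference of -1.14 ± 0.29 (limma adjusted p = 0.0235), and was the 1 gene of 45 called (2.24% of all genes, 0.626% higher and 1.62% lower). Another 35 genes had a negative difference without passing the test, and the median was -0.19, against -0.02 over all genes. This count is not of independent observations, since the genes were read in the same 4 animals per group. Time on study and the title code cannot be told apart here.

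Doses below 15 ppm moved few of these genes. After 5 d, limma called 0 of 45 at 0.7, 2 and 6 ppm (1, 4 and 6 at an unadjusted p under 0.05), where 0%, 0.0281% and 8.83% of all genes were called (at 6 ppm 3.54% higher and 5.30% lower). Most differences there were negative, in 31, 39 and 38 of 45 genes, with medians of -0.07, -0.15 and -0.22, against -0.02, -0.00 and -0.01 over all genes. The genes were read in the same 4 animals per group, so these counts are not independent. Per array the mean over the set ran from -0.41 to 0.37, -0.32 to -0.06 and -0.37 to 0.13 at these doses. At 0 ppm it ran from -0.17 to 0.16, so all 3 ranges overlapped it. At 10 ppm 2 genes were higher, Oasl by 0.83 ± 0.24 and Eif2ak2 by 0.48 ± 0.16, against 15.5% of all genes called (9.75% higher and 5.79% lower). Compared with 10 ppm, 15 ppm was higher in 33 of 45 genes after 5 d (15.2% of all genes called in either direction, 7.18% higher and 8.00% lower), with a median of 0.67, against -0.02 over all genes.
After 4 w, 0 of 45 were called at 2 ppm and 0 at 6 ppm by limma (5 and 3 at an unadjusted p under 0.05), where 0.0211% (0.0141% higher and 0.00703% lower) and 3.28% (2.05% higher and 1.24% lower) of all genes were called. At 10 ppm Oasl, Isg15 and Rsad2 were higher than at 0.7 ppm (14.8% of all genes called, 9.03% higher and 5.75% lower), and Herc6 alone was higher at 15 than at 10 ppm (6.29% of all genes called, 5.11% higher and 1.18% lower). After 13 w, 0 were called at 0.7 ppm and 0 at 2 ppm by limma (0 and 5 at an unadjusted p under 0.05), where 0% and 0.00703% of all genes were called. Oasl alone was called at 6 ppm, where 12.2% of all genes were called (7.54% higher and 4.68% lower), and at 10 ppm, where 26.4% were (13.8% higher and 12.5% lower). Between 15 and 10 ppm, 0 of 45 were called by limma (4 at an unadjusted p under 0.05), against 12.6% of all genes (8.55% higher and 4.07% lower).

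Oasl had a graded course. After 13 w it averaged 7.91 ± 0.24, 7.72 ± 0.31, 8.48 ± 0.26, 8.86 ± 0.25, 9.01 ± 0.34 and 9.11 ± 0.19 at 0, 0.7 and 2 ppm and then at 6, 10 and 15 ppm (SD, n = 4 each). Neighbouring doses from 6 ppm upward lay within their spread. Isg15 after 5 d averaged 10.19 ± 0.40, 9.88 ± 0.74, 9.52 ± 0.35, 9.83 ± 0.75, 10.86 ± 0.77 and 13.34 ± 0.15 over the same doses. In Isg15 neighbouring doses up to 10 ppm overlapped, and 15 ppm stood apart. The plot of every array includes Isg15 but not Oasl.

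**Figure D4:**
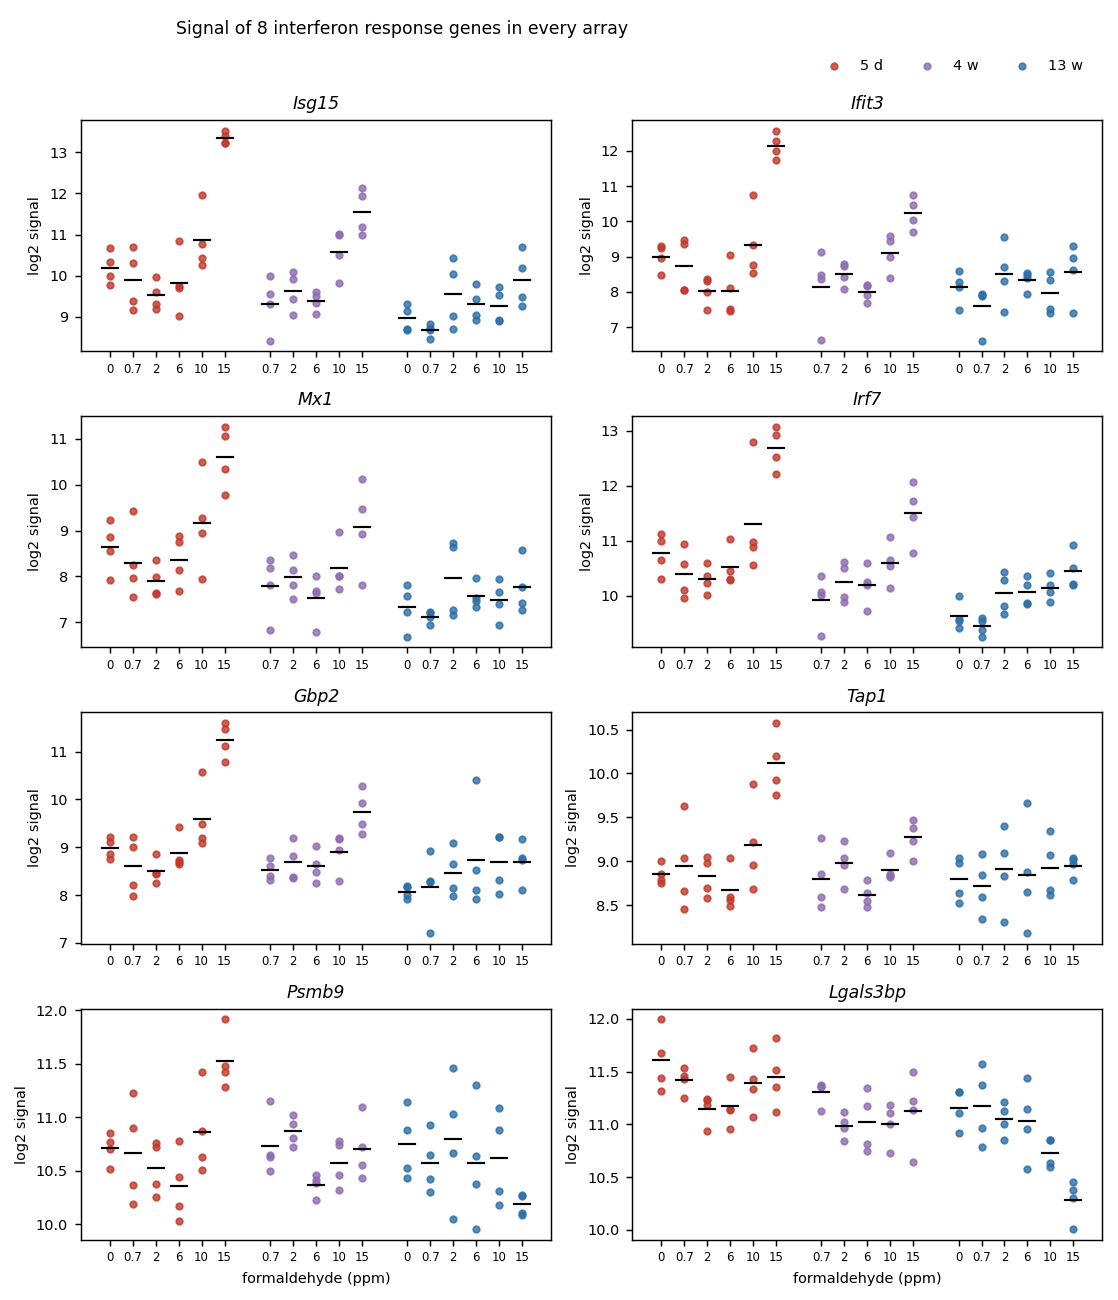
Each panel is 1 gene and each point 1 array, with log2 signal against dose in ppm for 5 d, 4 w and 13 w, and black lines are group means (n = 4). At 15 ppm after 5 d all genes shown but Lgals3bp lie above 0 ppm without overlap, and after 13 w Psmb9 and Lgals3bp lie below it.

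Single arrays at 15 ppm were compared by the mean difference of the 45 genes from the lowest dose of the same time. After 5 d the 4 animals read 1.28 (354), 1.43 (356), 0.85 (358) and 0.98 (359). Animal 356 held the highest value of its group in 29 genes and animal 358 the lowest in 31. Such counts were similar at 0 ppm after 5 d, where animal 204 was highest in 29 genes and animal 207 lowest in 27. All 4 exceeded the highest 0 ppm array, at 0.16.
After 4 w the range was wider: 0.84 (362), 0.18 (365), 0.58 (368) and 0.44 (369). Animal 362 was highest in 36 genes and animal 365 lowest in 34, and animal 365 lay close to the highest 0.7 ppm array, at 0.16. Without animal 362, 12 genes were called (11 higher, 1 lower), and without animal 365, 18 (all higher). In the same 4 w animals the T and NK marker mean was 6.51 (362), 6.09 (365), 6.29 (368) and 6.37 (369). In that order the macrophage and dendritic cell mean was 8.22, 7.92, 7.83 and 8.04, lowest in animal 368. That of neutrophils was 7.86, 7.72, 8.13 and 7.50, highest in animal 368 and lowest in animal 369. The marker lists thus ordered these animals differently, and their part was not tested.
After 13 w the animals read -0.02 (375), 0.07 (377), -0.19 (378) and 0.20 (379). Animal 379 was highest in 24 genes and animal 378 lowest in 23. All 4 were negative for the immunoproteasome and peptide-loading genes, at -0.33, -0.16, -0.31 and -0.25, and positive for the guanylate-binding proteins, at 0.95, 0.63, 0.26 and 1.06.

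One animal outside 15 ppm stood apart. At 10 ppm after 5 d, animal 329 had a mean difference of 0.93, inside the 15 ppm range of 0.85 to 1.43, whereas its 3 group mates lay between -0.04 and 0.11. It held the highest value of its group in 42 of 45 genes. Such a count was also high in animal 298 at 6 ppm (38 genes) and animal 237 at 0.7 ppm (37 genes) after 5 d, whose mean differences were 0.13 and 0.37. Irf7 read 12.79 in this animal, against 10.98, 10.88 and 10.56 in the others, Mx1 read 10.49, against 9.26, 8.94 and 7.94, and Ifit3 read 10.76, against 8.75, 8.53 and 9.32. Its T and NK marker mean was 6.73, against 6.11 to 6.17 in the others, its macrophage and dendritic cell mean 8.40, against 7.77 to 7.94, and its mean for CXCR3 and its ligands 7.59, against 6.35 to 6.90. Without it, 0 genes were called at 10 ppm by limma and the median was -0.01, against 2 called and a median of 0.25 with it. The count at 10 ppm also fell to 0 without 0 ppm animal 207 and to 1 without 0 ppm animal 210 or 10 ppm animal 328, and stood at 5 without 10 ppm animal 330.

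**Figure D5:**
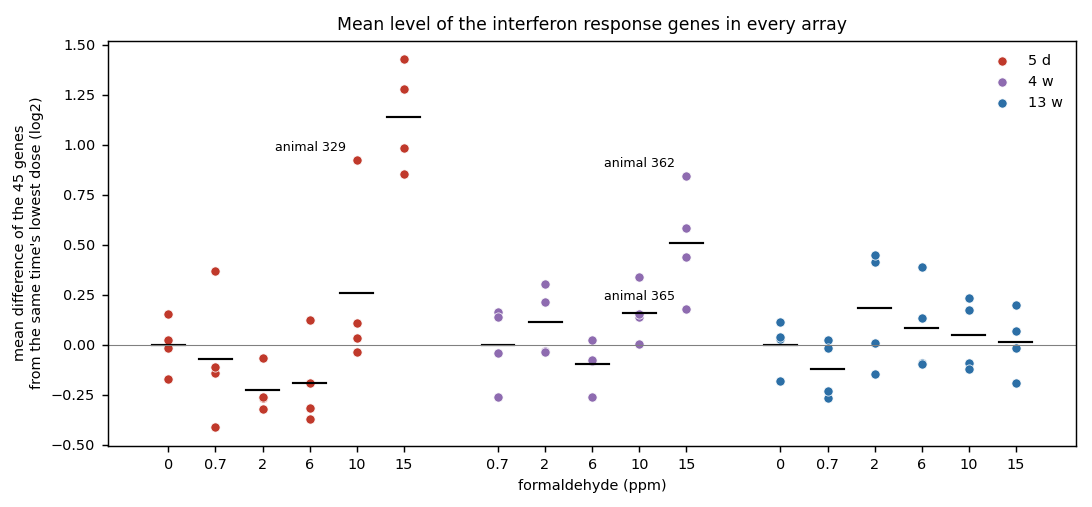
Each point is 1 array, with the mean over the 45 genes of its difference in log2 signal from the 0 ppm (5 d, 13 w) or 0.7 ppm (4 w) mean against dose in ppm, and black lines are group means (n = 4). Animal 329 at 10 ppm lies at 0.93 among the 15 ppm arrays of 5 d, and the 4 animals of 15 ppm after 4 w spread between 0.18 and 0.84.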

How the data were processed

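RNA of 68 nasal samples was measured on single-colour Affymetrix arrays. Expression was deposited as log2 signal, and the submitters' processing notes name GCOS 1.0 and RMA (no version) as the authors' tools. The deposited log2 values were used unchanged, with 31099 probe sets and array medians of 6.82 to 6.96. RMA sets all arrays to a common distribution, so a change shared by most genes would not show. Of the probe sets, 20826 named 1 gene, 436 several and 9780 none, and 57 were array controls. Names come from the platform annotation, updated through RefSeq. The brightest probe set stood for each of 14217 genes, and 10 genes of the set had several. A group mean under 6 was called low signal.

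A model with 1 mean for each group was fitted to all 68 arrays with limma 3.58.1 (R 4.3.3), with 51 residual degrees of freedom beside a prior of 2.85 and Benjamini-Hochberg adjustment over all genes in each of 22 comparisons. Calls needed an adjusted p below 0.05. The script was tested on simulated data. The median SE was 0.10 for a difference, and the 4 arrays per group limit the precision. Each ± after a difference is that SE. Tests comparing probe sets of 1 gene came from a fit over all 31099 probe sets.

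The members, lists and comparisons were chosen with earlier results of these data known, including the choice of genes shown with every array: 14 chosen by name, and in each 15 ppm comparison the 5 called genes with the largest rise and the 5 with the largest decrease. Of other lists, up to 4 called genes by smallest adjusted p per time may be named, with Ifnb1, Ifng, Cxcl10, Psmb5, Psmb7, B2m and the tissue marker Omp by name. Alternatives tried were array centring, cyclic loess, a low-signal filter, the mean of all probe sets, the arrays of the compared times alone, array weights, a trended robust prior, RNA integrity, the actin ratio, 0.7 ppm as reference, and leaving out each animal in turn. Interferon response genes named by no single-gene probe set were not analysed here.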

Additional observations from a re-analysis of the deposited data

Results flagged for a closer look

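In 59 sets of 4 arrays (the mean difference of the 45 genes in each of the 17 groups, and 14 genes in each 15 ppm group), 1 animal lay farther from its group than the critical value of Dixon's test for 4 samples. This was animal 329 at 10 ppm after 5 d, with a mean difference of 0.9257 and a gap of 0.849 of its group's range. Chance gives such a gap in about 1 in 20 sets. The response at 15 ppm differed between 13 w and 5 d in 36 genes by the interaction test of limma, all lower after 13 w. Between 4 w and 5 d it differed in 8 genes, all lower after 4 w.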

How the results depend on the processing

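The counts of called genes at 15 ppm after 5 d and 4 w stayed within 1.5 times the reported count under each of the alternatives run, and so did that of the 15 ppm responses of 13 w against 5 d. Among single genes called at 15 ppm no difference changed sign under any alternative or left-out animal. The call was kept in 700 gene-by-setting checks and lost in 21 at 5 d, kept in 243 and lost in 8 at 4 w, and kept in 179 and lost in 49 at 13 w. After 13 w at 15 ppm, 12 genes were called, and 6 with the RNA integrity number as a covariate or without the arrays that lack one. Reported counts that are small moved most. At 4 w, 15 ppm against 10 ppm gave 1 gene, and 5 with median centring, 3 with the low-signal filter, 4 with array weights and 3 with the actin ratio. At 13 w, 10 ppm gave 1, and 2 with cyclic loess, 2 with the low-signal filter, 2 with the compared time alone, 3 with array weights and 2 against 0.7 ppm, and 15 ppm against 10 ppm gave 0, and 1 with cyclic loess, 1 with the filter, 3 with array weights, 2 with RNA integrity and 3 with the actin ratio. The 0 ppm groups gave 1 between times, and 2 with the filter, 6 with array weights and 0 without the arrays that lack RNA integrity. At 5 d, 10 ppm gave 2, and 1 with the compared time alone, 1 with array weights, 0 with RNA integrity and 5 against 0.7 ppm, and 6 ppm gave 0, and 2 with array weights. At 13 w, 6 ppm gave 1, and 2 with array weights and 0 with RNA integrity. The 15 ppm response of 4 w against 5 d gave 8, and 21 with the actin ratio. The cause of these changes was not tested.

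Leaving out each animal in turn gave 34 to 38 genes at 15 ppm after 5 d, 11 to 18 after 4 w and 6 to 12 after 13 w. For 10 ppm it gave 0 to 5 after 5 d, 1 to 3 after 4 w (1 without 0.7 ppm animal 243 or 10 ppm animal 336) and 1 to 2 after 13 w (2 without 0 ppm animal 229). For 15 against 10 ppm it gave 26 to 38 after 5 d, 0 to 5 after 4 w (0 without 10 ppm animal 331 or 15 ppm animal 368, 2 without 10 ppm animal 336, 3 without 10 ppm animal 333, 5 without 15 ppm animal 365) and 0 to 0 after 13 w. The response at 15 ppm gave 28 to 37 for 13 w against 5 d, 0 to 0 for 13 w against 4 w, and 4 to 12 for 4 w against 5 d. This last count was 4 without 15 ppm animal 354 or 356 of 5 d, 5 without animals 242, 365 or 369 of 4 w or 235 or 240 of 5 d, and 12 without animal 237. The 0 ppm groups gave 0 to 1 (0 without animals 225, 229, 204, 208 or 210), 6 ppm after 13 w 1 to 1, and each other comparison 0 to 0. No paired analysis was possible because the labels give each animal its own number and no groups share replicate numbers.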
